A study of Homo sapiens with 15 samples.

Results

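The genes of oxidative phosphorylation were followed from human induced pluripotent stem cells (hiPSCs) through retinal organoids (ROs) to the induced Müller glial cells (iMGCs) grown out of them. They were selected by gene symbol: the mitochondrially encoded subunits (MT-ND, MT-CO, MT-ATP and MT-CYB), the NDUF A, B, C, S and V genes of complex I, SDHA to SDHD of complex II, the UQCR genes of complex III, COX4 to COX8 of complex IV and the ATP5 genes of complex V. This rule gave 103 of the 19684 listed genes, 13 on the mitochondrial genome and 90 on nuclear chromosomes. Of the nuclear genes, 39 carry a complex I name, 4 a complex II name, 9 a complex III name, 17 a complex IV name and 21 a complex V name. The symbol is not a perfect guide. NDUFA4 carries a complex I name but is known as a subunit of complex IV, ATP5IF1 is an inhibitor of complex V, and ATP5S (DMAC2L by its current name) is not a subunit. NDUFC2-KCTD14 and ATP5MF-PTCD1 are readthrough genes that share exons with their neighbours. The family was put forward with its values in these data known, so its counts and medians are given as descriptions, without a test over the family.

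The 15 libraries fell into 5 groups of 3. All came from the BC1-GFP hiPSC line, a line labelled as wild type that carries a GFP reporter, so every group shares 1 genetic background. The groups were undifferentiated hiPSCs, the neural retina (NR) layers of 70-day-old ROs (D70-ROs), those of 150-day-old ROs (D150-ROs), and iMGCs at passage 1 (P1 iMGCs) and passage 5 (P5 iMGCs). The NR layers hold many cell types and several ROs were pooled for a library, whereas the iMGCs were isolated from NR layers of D150-ROs and then kept as adherent cells. Media with serum were used for both the ROs and the iMGCs. Sample descriptions give 3 independent experiments a group, but the description of the whole series gives 2 for the hiPSCs and ROs, so p-values measure only the spread between these libraries, part of which may be technical. The series description names 2 sequencing companies and a correction between batches of data, but no source says which libraries were made together or which values, if any, were corrected, so batch and group cannot be told apart.

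Oxidative phosphorylation is the last stage of respiration. Complexes I and II pass electrons from NADH and succinate to ubiquinone, complex III passes them on to cytochrome c, complex IV hands them to oxygen, and complex V, the ATP synthase, uses the proton gradient that complexes I, III and IV build up. Mitochondrial DNA codes for the membrane cores of complexes I, III, IV and V and is read from a pair of promoters, 1 on each strand, into long RNAs that are then cut apart, while all of complex II and most other subunits come from nuclear genes. In the retina, photoreceptors are rich in mitochondria, and Müller glia are known for a more glycolytic metabolism.

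The nuclear genes are spread over many chromosomes and have no common promoter, but NRF1, the ETS factor GABP and YY1 are known to bind near the start of many of them. Promoters in RefSeq (GRCh38.p14) were found for 72 of the 90 nuclear genes, as 300 bases each, 250 before the start and 50 after. The NRF1 motif GCGCATGCG was in 10 of them (13.9%) against 2.1% of all 27305 promoters of that length. The ETS motif CCGGAAG was in 20 (27.8% against 10.7%), the YY1 motif AAGATGGCG in 8 (11.1% against 1.85%), and the hypoxia core ACGTG in 18 (25% against 21.6%). Both strands were searched, the NRF1 motif can overlap itself on the opposite strand, as in SDHD, and matches of different motifs do not overlap in the stretches shown. A match is a description of letters and not a bound site. The 6 stretches below, 130 bases before the start and 20 after, are shown because their genes carry results given later, or, for ATP5PF, because it holds 3 of the motifs. Capitals mark NRF1, ETS or YY1 motif letters on either strand, and all stretches read 5′ to 3′ on the strand of the gene.

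ATP5PF, chr21:25735035-25735184, minus strand, with an NRF1, a YY1 and an ETS motif 120, 57 and 30 bases before the start: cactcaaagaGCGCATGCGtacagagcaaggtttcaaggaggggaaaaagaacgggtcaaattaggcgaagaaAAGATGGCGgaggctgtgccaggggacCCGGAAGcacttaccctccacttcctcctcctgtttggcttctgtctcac
SDHD, chr11:112086743-112086892, plus strand, with overlapping NRF1 motifs at 110 and 109 bases and an ETS motif 77 bases before the start: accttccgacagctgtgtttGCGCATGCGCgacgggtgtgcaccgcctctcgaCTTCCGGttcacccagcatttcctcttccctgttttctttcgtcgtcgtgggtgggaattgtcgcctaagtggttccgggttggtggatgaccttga
NDUFS6, chr5:1801277-1801426, plus strand, with an NRF1 motif 46 bases before the start: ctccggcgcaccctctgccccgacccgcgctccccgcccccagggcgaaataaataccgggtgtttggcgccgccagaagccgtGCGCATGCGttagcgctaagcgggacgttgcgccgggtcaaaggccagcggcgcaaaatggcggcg
COX6A1, chr12:120437983-120438132, plus strand, with an ETS motif 16 bases before the start: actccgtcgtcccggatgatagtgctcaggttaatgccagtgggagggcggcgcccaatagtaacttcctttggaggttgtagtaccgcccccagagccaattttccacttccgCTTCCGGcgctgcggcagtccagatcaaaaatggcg
COX7A2L, chr2:42361198-42361347, minus strand, with no motif in this stretch: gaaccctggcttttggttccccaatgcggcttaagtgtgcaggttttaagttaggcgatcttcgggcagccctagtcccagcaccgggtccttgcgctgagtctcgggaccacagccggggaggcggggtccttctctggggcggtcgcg
COX7C, chr5:86617811-86617960, plus strand, with no motif in this stretch: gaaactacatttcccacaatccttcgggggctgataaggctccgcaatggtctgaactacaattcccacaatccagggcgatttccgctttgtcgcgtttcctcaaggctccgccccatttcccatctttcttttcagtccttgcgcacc

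Library totals of expected counts, the authors' estimates of reads per gene, lay between 11349600 (D70-RO replicate 2) and 20398755. The 6 pluripotent cell markers summed to 3231 to 3411 FPKM (fragments scaled for transcript length and library size) in hiPSCs and to at most 9.14 elsewhere. The 8 retinal progenitor markers summed to 956 to 1103 FPKM in D70-ROs, and the 10 photoreceptor markers rose from 135 to 146 FPKM there to 1054 to 1161 in D150-ROs and were at 0.2 to 0.57 in iMGCs. The 7 pigment epithelium markers summed to 119 to 138 FPKM in hiPSCs, then 85.8 to 140 in D70-ROs and under 30 in the later groups. Only 1 of the 7 had a mean of at least 1 FPKM in hiPSCs, so that sum came almost wholly from 1 gene. In each RO group 3 did, and in iMGCs 0. Of 3 tested in D150-ROs against hiPSCs, 2 were higher and 1 lower, beside 43.2% and 43.9% of all genes. The 7 Müller glia markers summed to 1463 to 2337 FPKM in D70-ROs, 1206 to 1374 in D150-ROs, 2229 to 2267 in P1 and 2984 to 3094 in P5 iMGCs, with VIM alone at 2160 and 2858 in the last 2 groups. Of the 7, 3 were higher and 4 lower in P1 iMGCs than in D150-ROs, beside 42.2% and 44.7% of all genes. RLBP1, a defining marker, was at 0 in all P1 libraries. It passed the filter of 1 FPKM in 3 libraries only through the D150-ROs, so its place among the lower genes was fixed by the filter. GLUL was at 13.4 FPKM in P1 against 100 in D150-ROs. The 8 mesenchymal and matrix markers summed to 12453 to 13975 FPKM in iMGCs against at most 28.1 in D150-ROs. Since the libraries are bulk RNA, fewer cells of a type and less RNA per cell cannot be told apart in any value below.

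Mitochondrially encoded and nuclear members moved apart along this course. The 13 mitochondrial genes took 2.91%, 3.97% and 2.4% of the counts in the 3 hiPSC libraries, 3.21%, 3.9% and 3.43% in D70-ROs, 3.87%, 4.38% and 3.96% in D150-ROs, 7.54%, 7.37% and 7.72% in P1 iMGCs and 6.92%, 8.41% and 7.67% in P5 iMGCs. All 6 iMGC libraries lay above all 9 others. The group means were 3.09% ± 0.797, 3.52% ± 0.353, 4.07% ± 0.271, 7.54% ± 0.173 and 7.67% ± 0.746 (SD, n = 3 each). P1 iMGCs were 3.48 percentage points above D150-ROs (exact permutation test, two-sided, p = 0.1, the smallest that 3 libraries against 3 can give). The steps between hiPSCs, D70-ROs and D150-ROs lay within overlapping ranges, with exact permutation p-values of 0.5, 0.2 and 0.3, and P1 and P5 iMGCs overlapped (exact permutation p = 0.8).

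The 90 nuclear members took a far smaller share. It was 0.821%, 0.825% and 0.872% in hiPSCs, 0.866%, 0.823% and 0.802% in D70-ROs, 0.487%, 0.544% and 0.531% in D150-ROs, 0.423%, 0.44% and 0.448% in P1 iMGCs and 0.431%, 0.396% and 0.417% in P5 iMGCs. D150-ROs lay below every hiPSC and D70-RO library, at 0.627 times the D70-RO mean, and P1 iMGCs lay below every D150-RO library, at 0.839 times their mean (exact permutation p = 0.1 each, the smallest possible). With the mitochondrial counts left out of the totals, the nuclear share still ran 0.866%, 0.86%, 0.543%, 0.473% and 0.449% over the 5 groups. There were 3.7 ± 1.03 mitochondrial counts for each nuclear one in hiPSCs, 4.24 ± 0.517 in D70-ROs, 7.81 ± 0.321 in D150-ROs, 17.3 ± 0.536 in P1 and 18.6 ± 2.59 in P5 iMGCs. This ratio uses no scaling between libraries. It was 1.84 times higher at day 150 than at day 70 and 2.21 times higher again in P1 iMGCs, without overlap at either step (exact permutation p = 0.1 each).

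**Figure D1:**
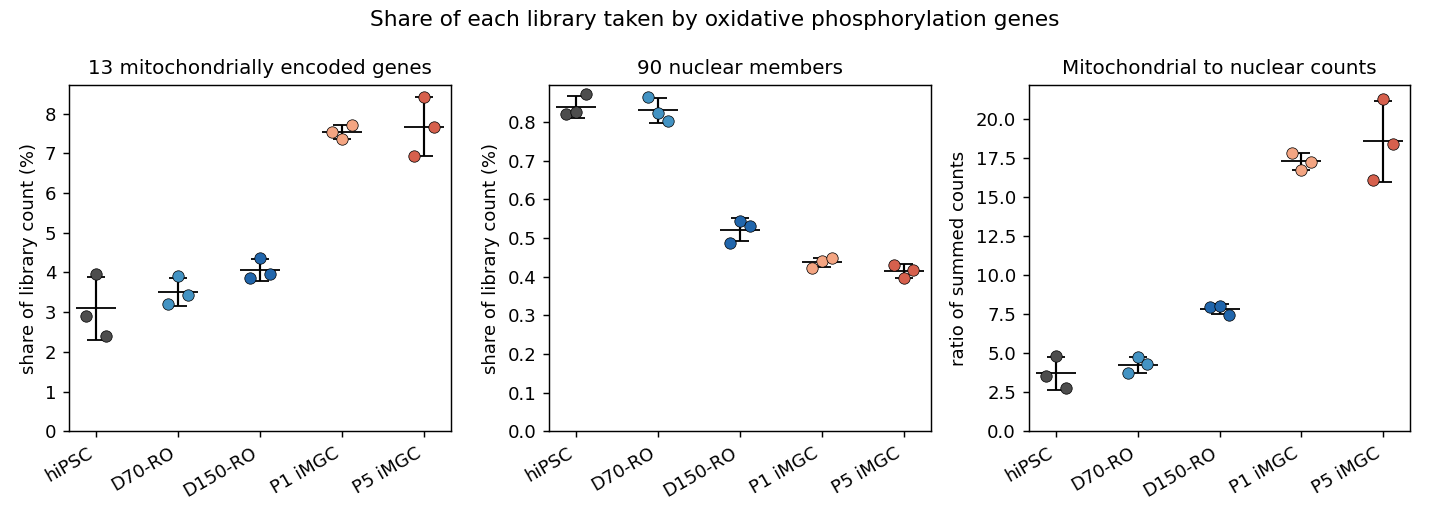
Share of the library's expected counts (%) taken by the 13 mitochondrially encoded genes (left) and the 90 nuclear members (middle), and the ratio of the 2 sums (right), in the 5 groups. Points are libraries, and bars the mean and SD of 3. The mitochondrial share sits at 7.54% and 7.67% in P1 and P5 iMGCs and at most at 4.38% elsewhere, while the nuclear share drops between D70-ROs and D150-ROs.

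The 13 mitochondrial genes all passed the filter on low values in every comparison. MT-CO1 (chrM:5904-7445, plus strand), the catalytic subunit of complex IV, had the highest mean FPKM of the 13 in every group. It stood at 6237, 8228 and 5038 FPKM in the hiPSC libraries, 6635, 8637 and 6925 in D70-ROs, 6381, 6446 and 5381 in D150-ROs, 14759.9, 14429 and 14823 in P1 and 13699, 16134 and 15034 in P5 iMGCs. The hiPSC and RO ranges of MT-CO1 overlapped, and all iMGC libraries were higher. Per length, 6 of the 13 genes had their highest mean in P1 and 7 in P5 iMGCs, and 8 had their lowest in hiPSCs, 4 in D70-ROs, then 1 in D150-ROs.

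Between hiPSCs and D70-ROs the mitochondrial genes did not move as 1 block. In the fit over all 12954 genes tested (edgeR's quasi-likelihood test with TMM scaling, adjusted p under 0.05), 4 were higher and 2 lower in D70-ROs, beside 37.9% of all genes called higher and 37.3% lower, and their median log2 fold change was 0.18 against 0.02 over all genes. MT-ND1 (chrM:3307-4262, plus strand), a core subunit of complex I, stood at 1658, 2177 and 1376 FPKM in hiPSCs, at 621, 872 and 654 in D70-ROs, then at 1247, 1529 and 1367 in D150-ROs. The D70-RO libraries lay below all others, at a log2 fold change of −1.41 from hiPSCs (SE 0.20, adjusted p = 5.75e-05) and with 0.72 regained by day 150 (SE 0.15, adjusted p = 0.00226). MT-CO3, another core subunit of complex IV, followed the same course. Its FPKM were 5312, 7482 and 4526 in hiPSCs, 3687, 3692 and 3713 in D70-ROs, then 5664, 6189 and 5492 in D150-ROs, with steps of −0.78 (SE 0.17, adjusted p = 0.00165) and then 0.42 (SE 0.08, adjusted p = 0.00167).

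Other mitochondrial genes went the opposite way at the first step. MT-CO2, the complex IV subunit that takes electrons from cytochrome c, stood at 1937, 3146 and 1785 FPKM in hiPSCs, then at 3680, 4805 and 3996 in D70-ROs, a log2 fold change of 0.72 (SE 0.21, adjusted p = 0.0096). MT-ND6 (chrM:14149-14673, minus strand) is the only member read from the other strand. It rose from 655, 899 and 494 FPKM to 1249, 1588 and 1489 (log2 fold change 0.94, SE 0.20, adjusted p = 0.00143). MT-ND5 and MT-CYB, a proton-pumping subunit of complex I and the core of complex III, rose by 0.50 and 0.46 (adjusted p = 0.026 and 0.0313). The sources do not give the strand setting, so reads of MT-ND6 and of transcripts from the opposite strand cannot be told apart.

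From day 70 to day 150, 4 mitochondrial genes rose and 2 fell with TMM scaling, beside 36.5% and 37.4% of all 12855 genes, with a median of 0.25 against −0.01. MT-ND2, a proton-pumping subunit of complex I, had the largest rise. It went from 2139, 2419 and 2149 FPKM to 4229, 4908 and 4606 without overlap (log2 fold change 0.81, SE 0.10, adjusted p = 0.000103). MT-ATP8, a small subunit of complex V, rose by 0.46 (adjusted p = 0.021), whereas MT-CO1 and MT-CO2 fell by 0.51 and 0.53 on the log2 scale (adjusted p = 0.00852 and 0.00424) with TMM scaling but stood at 0.00 and 0.73 once the trend of fold change with transcript length was taken out. With that trend removed 12 genes rose and none fell, beside 4495 and 4524 of all 12855 genes, at a median of 1.53. By FPKM (limma on log2(FPKM + 1)) 6 rose and none fell, beside 5654 and 3606 of all genes, at a median of 0.42.

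D150-ROs set against hiPSCs directly gave 4 mitochondrial genes higher and 3 lower, beside 43.2% and 43.9% of all 13344 genes, at a median of 0.19 with TMM scaling. With the length trend removed 12 were higher and none lower (median 1.39), beside 5706 and 5887 of all genes. By FPKM 8 were higher and none lower (0.61), beside 6671 and 4851. MT-ND2 was higher by 1.04 (SE 0.14, adjusted p = 1.7e-05) and MT-ND1 lower by 0.70 on the log2 scale (SE 0.15, adjusted p = 0.000784) with TMM scaling, but MT-ND1 was at 0.35 with the length trend removed. MT-ND6, MT-ND4 and MT-ND5 were higher by 0.60, 0.42 and 0.35. MT-CO1 and MT-CO3 were lower by 0.46 and 0.36 with TMM scaling, and at 0.15 and 0.81 with the length trend removed. How many of the 13 were called higher rested on single libraries: 10 without hiPSC replicate 2, which had the highest mitochondrial share of its group, and 1 without hiPSC replicate 1 or 3.

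All 13 mitochondrial genes were higher in P1 iMGCs than in D150-ROs, 12 of them by at least 2-fold, beside 42.2% of all 12896 genes called higher and 20% higher by at least 2-fold. Their median log2 fold change was 1.53, between 0.68 and 2.03, against −0.05 over all genes. MT-CYB (chrM:14747-15887, plus strand) led. It stood at 2403, 2729 and 2571 FPKM in D150-ROs, at 6755, 6605 and 6752 in P1 and at 5977, 7330 and 6584 in P5 iMGCs, a log2 fold change of 2.03 between the first 2 (SE 0.05, adjusted p = 8.62e-15). MT-CO2 rose from 3111, 3579 and 3440 FPKM to 8405, 8208 and 8666 (1.96, SE 0.06, adjusted p = 2.35e-14), MT-CO1 by 1.92 (SE 0.07, adjusted p = 2.2e-13) and MT-ND4L by 1.93 (SE 0.17, adjusted p = 2.77e-08). The core subunits of complexes III and IV thus had 3 of the 4 largest changes.

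The remaining mitochondrial genes rose less. MT-ND1 rose by 1.57, MT-ATP6 by 1.54, MT-ATP8 by 1.53, MT-ND4 by 1.26, MT-ND3 by 1.19, MT-CO3 by 1.17, MT-ND5 by 1.07 and MT-ND2 by 1.04. MT-ND6 rose least, by 0.68 (SE 0.10, adjusted p = 9.85e-06), and its sign was not stable, at −0.07 with the length trend removed and 0.05 by FPKM. Its 1052, 1554 and 1386 FPKM in D150-ROs overlapped the 1336, 1314 and 1440 in P1 iMGCs. MT-ND3, at 897, 1842 and 1275 against 1788, 1809 and 2274 FPKM, also overlapped. The median of the 13 was 0.95 with the length trend removed and 0.89 by FPKM, with 12 called higher and none lower under each. Of all 12896 genes 5388 and 2956 were called higher under these settings. MT-ATP6 and MT-ATP8, and MT-ND4 and MT-ND4L, overlap on the same strand, so how reads were split between them is uncertain.

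As a share of all mitochondrial counts, MT-CO1 gave 32.4% in hiPSCs and D70-ROs, 23% in D150-ROs and 30% in P1 iMGCs. MT-ND2 gave 5.87%, 6.64%, 11.7% and 8.33% and MT-ND4 13.1%, 14.3%, 17.1% and 14.2%, both highest in D150-ROs. MT-ND1 gave 5.39% in hiPSCs, then 1.94% in D70-ROs, and MT-CYB rose from 7.21% in D150-ROs to 10.1% in P1 iMGCs. These shares do not depend on scaling between libraries.

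Between passages the mitochondrial genes changed little. At P5, 4 were higher and 1 lower than at P1, beside 16.6% and 14% of all 11366 genes, none by 2-fold, and the median was 0.09. MT-ND6 went from 1336, 1314 and 1440 to 1518, 1922 and 1703 FPKM, above all P1 libraries (log2 fold change 0.39, SE 0.06, adjusted p = 1.52e-05). MT-ND5 was higher by 0.30 (SE 0.06, adjusted p = 0.000203), MT-ND1 and MT-ND4 by 0.17 each, and MT-ND2 lower by 0.18 on the log2 scale (adjusted p = 0.0128). With all 15 libraries in 1 fit none of these 5 was called, and without P5 replicate 1, the lowest P5 library for most of them, 8 were called higher.

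**Figure D2:**
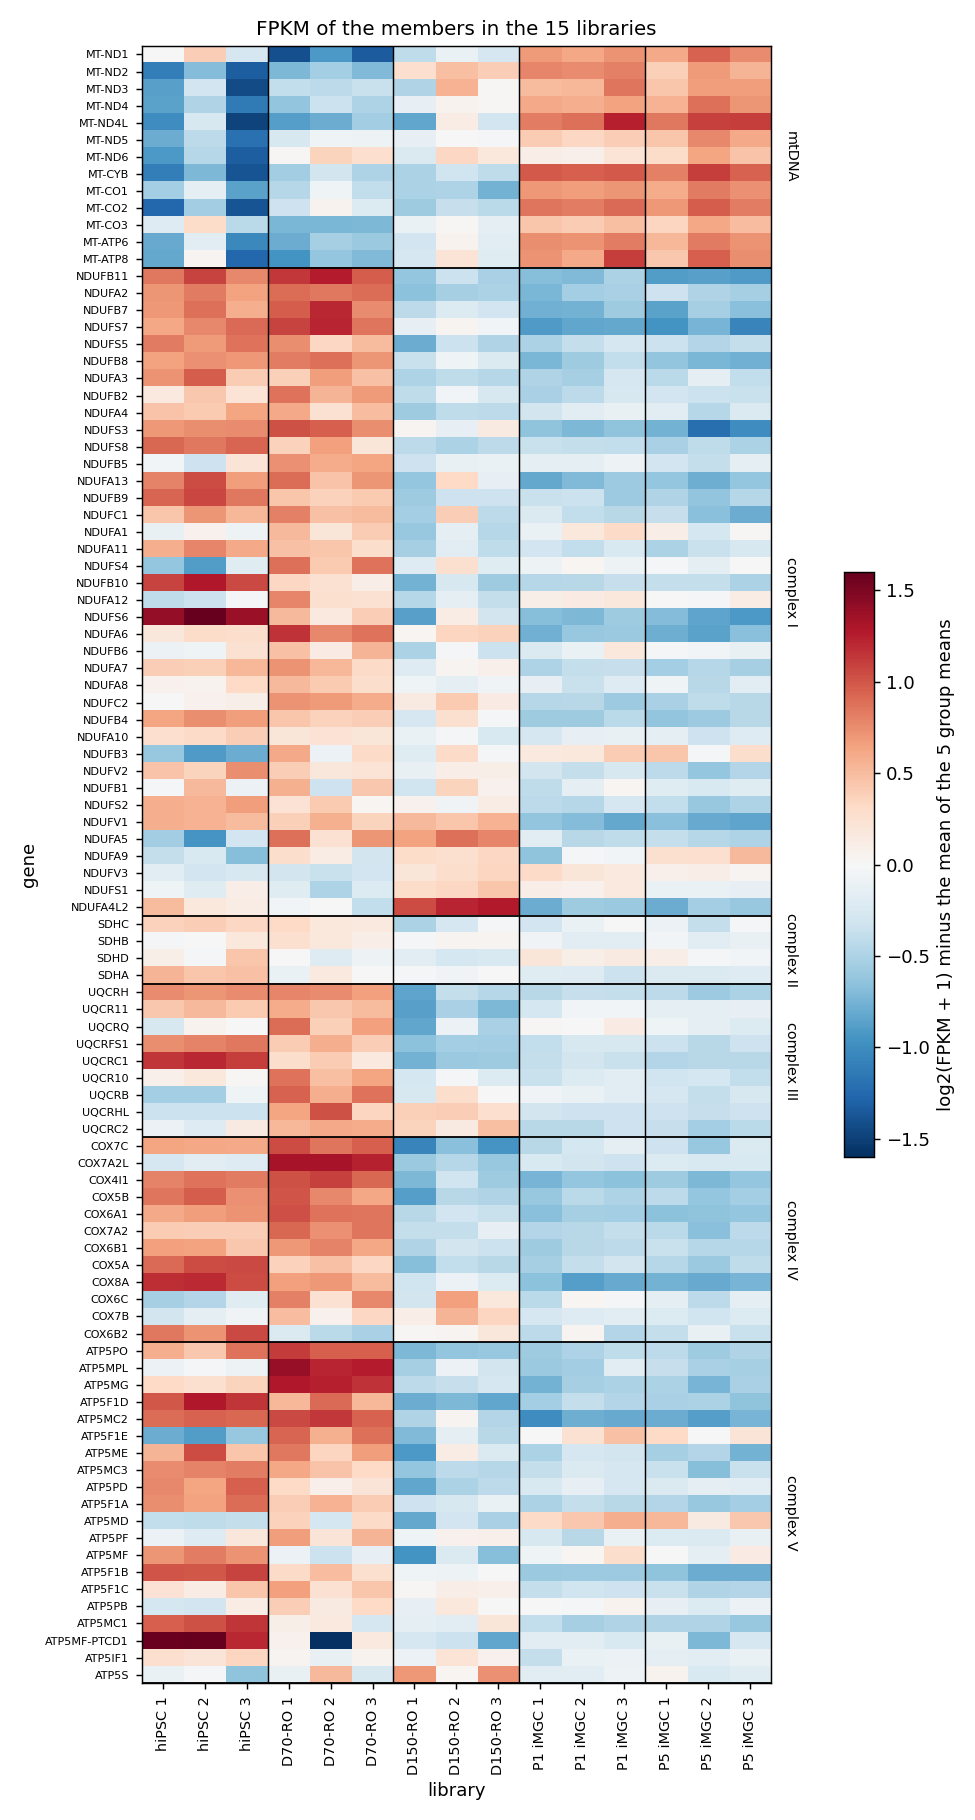
FPKM of the 96 members that reach 1 FPKM in a library, by library (columns) and gene (rows, grouped into mitochondrial DNA and complexes I to V). Colour is log2(FPKM + 1) minus the mean of the 5 group means, drawn to 1.6 at either end. The mitochondrial block is red in the 6 iMGC libraries, and most nuclear rows turn from red or pale to blue at D150-ROs and stay there.

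Nuclear members that passed the filter of at least 1 FPKM in 3 of the 6 libraries of a comparison could still be low. The lowest group mean among them was 0.13 FPKM, in D70-ROs. Another 8 never passed it. ATP5MGL, COX7B2 and COX8C were listed at 0 in all 15 libraries. COX6A2 and COX7A1, known from heart and muscle, COX4I2, NDUFC2-KCTD14 and UQCRHL were the others, and UQCRHL reached 1.62 FPKM in D70-RO replicate 2, although it is a near copy of UQCRH and reads may be shared between them. COX6B2, known from testis, passed only where hiPSCs were compared. That left 82 nuclear members in the comparisons with hiPSCs and 81 in the other 3. Over the 82, the median of the group mean FPKM was 70.5 in hiPSCs, 76.4 in D70-ROs, 43.6 in D150-ROs, 40.5 in P1 and 37.4 in P5 iMGCs. By this per-length level, 34 were highest in hiPSCs, 40 in D70-ROs, 6 in D150-ROs, and 1 in each iMGC group.

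Summed by complex, the levels per length were lower from day 150 on, least so in complex II. Complex I genes summed to 2430, 2562 and 2507 FPKM in hiPSCs, then 2680, 2440 and 2393 in D70-ROs, 1416, 1731 and 1575 in D150-ROs, 1263, 1294 and 1362 in P1 and 1273, 1212 and 1262 in P5 iMGCs. Complex IV genes summed to 2101, 2180 and 2117 FPKM in the hiPSC libraries, 2522, 2372 and 2314 in D70-ROs, 944, 1175 and 1065 in D150-ROs, 924, 990.4 and 1008 in P1 and 980.0, 900 and 981 in P5 iMGCs. In both, all D150-RO and iMGC libraries lay below all hiPSC and D70-RO libraries. Complex V went from 2905 ± 145 and 2636 ± 91.7 FPKM in hiPSCs and D70-ROs to 1565 ± 119 in D150-ROs, and complex III from 641 ± 15.2 and 713 ± 33.5 to 386 ± 34.3. Complex II, which has no subunit encoded in mitochondrial DNA, stood at 217 ± 8.08, 190 ± 6.59, 160 ± 9.74, 164 ± 2.45 and 161 ± 9.69 FPKM over the 5 groups (SD, n = 3).

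In D70-ROs against hiPSCs, nuclear members divided. Of 82 tested, 21 were higher and 30 lower, beside the 37.9% and 37.3% of all genes, and the median was −0.01, or 0.11 by FPKM. At least 2-fold, 7 were higher and 6 lower, beside 22.5% and 21.1% of all genes. Complex II had none higher and 3 of 4 lower, complex III 4 higher and 2 lower of 8, complex IV 4 and 3 of 12, complex I 8 and 13 of 38, and complex V 5 and 9 of 20. No complex was called in 1 direction throughout.

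COX7A2L (ENSG00000115944, chr2:42333546-42425088, minus strand), which helps to join complexes III and IV into supercomplexes, had its peak in D70-ROs. It stood at 68.4, 73.2 and 71.5 FPKM in hiPSCs, then 208, 207 and 194 in D70-ROs, 54.2, 59.6 and 53.9 in D150-ROs, 69.8, 67.3 and 65.5 in P1 and 71.0, 69.4 and 69.6 in P5 iMGCs. The D70-RO libraries stood alone, with log2 fold changes of 1.39 from hiPSCs (SE 0.11, adjusted p = 4.44e-07) and −2.01 to D150-ROs (SE 0.09, adjusted p = 3.11e-07). ATP5F1E, the epsilon subunit of complex V, rose from 9.07, 8.45 and 10.5 to 32.2, 24.9 and 31.3 FPKM (1.51, SE 0.13, adjusted p = 1.1e-06). ATP5MPL, a small membrane subunit of complex V, rose from 46.9, 49.6 and 47.7 to 134, 119 and 121 FPKM (1.22, SE 0.11, adjusted p = 2.29e-06) and was back at 34.4, 46.9 and 40.9 FPKM in D150-ROs.

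COX6B2 passed the filter only through the hiPSC libraries, so its place among the lower genes was fixed by the filter and is given as a description. The counts of lower members above include it. It stood at 1.65, 1.43 and 2.08 FPKM in hiPSCs, then at 0.26, 0.1 and 0.03 in D70-ROs, where its 3 libraries held 3, 2 and 1 counts. Of the other nuclear members, ATP5MF-PTCD1 and NDUFS6 fell most. NDUFS6, a complex I subunit that binds zinc, fell from 71.1, 81.8 and 69.7 to 37.8, 29.3 and 34.9 FPKM (−1.27, SE 0.13, adjusted p = 5.29e-06) and on to 13.8, 28.6 and 21.1 in D150-ROs. It lost 2.25 on the log2 scale over both steps (SE 0.18, adjusted p = 1.35e-07). The readthrough gene ATP5MF-PTCD1 fell from 8.07, 8.96 and 6.03 FPKM to 2.18, 0 and 2.39 (−2.41, SE 0.61, adjusted p = 0.00392), with ATP5MF itself lower by 1.12 on the log2 scale. ATP5F1B, the catalytic beta subunit and the complex V gene with the highest mean level, stood at 683, 675 and 720 FPKM in hiPSCs, then 418, 478 and 406 in D70-ROs (−0.82, SE 0.11, adjusted p = 5.16e-05).

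The main drop of nuclear members came between day 70 and day 150, but most of its size on the count scale went with transcript length. With TMM scaling, 68 of 81 were lower and 5 higher in D150-ROs, beside 37.4% and 36.5% of all genes, and 40 were lower and 2 higher by at least 2-fold, beside 16.7% and 16.6%. The median was −1.0 against −0.01 over all genes. By FPKM 62 were lower and 3 higher, beside 3606 and 5654 of all 12855 genes, at a median of −0.78 against 0.19 over all genes. Once the trend with transcript length was removed, 22 were lower and 30 higher, beside 4524 and 4495 of all genes, at a median of 0.07.

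Nuclear members are short, with a median transcript length of 795 bases against 2703 over all genes with a length. In this comparison the medians of all other genes ran −0.67, −0.18, 0.17 and 0.55 from the shortest to the longest length quartile. Those of the nuclear members ran −1.01 (67 members), −0.63 (9), −0.39 (4) and 0.59 (1), lower than the other genes in all but the longest quartile. Among the 751 other genes of at most 1000 bases, 531 were lower and 73 higher, with a median of −1.08, beside 43 lower and none higher of 47 nuclear members of that length, with a median of −1.05. The members of at most 1000 bases therefore moved by about as much as other genes of that length.

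**Figure D3:**
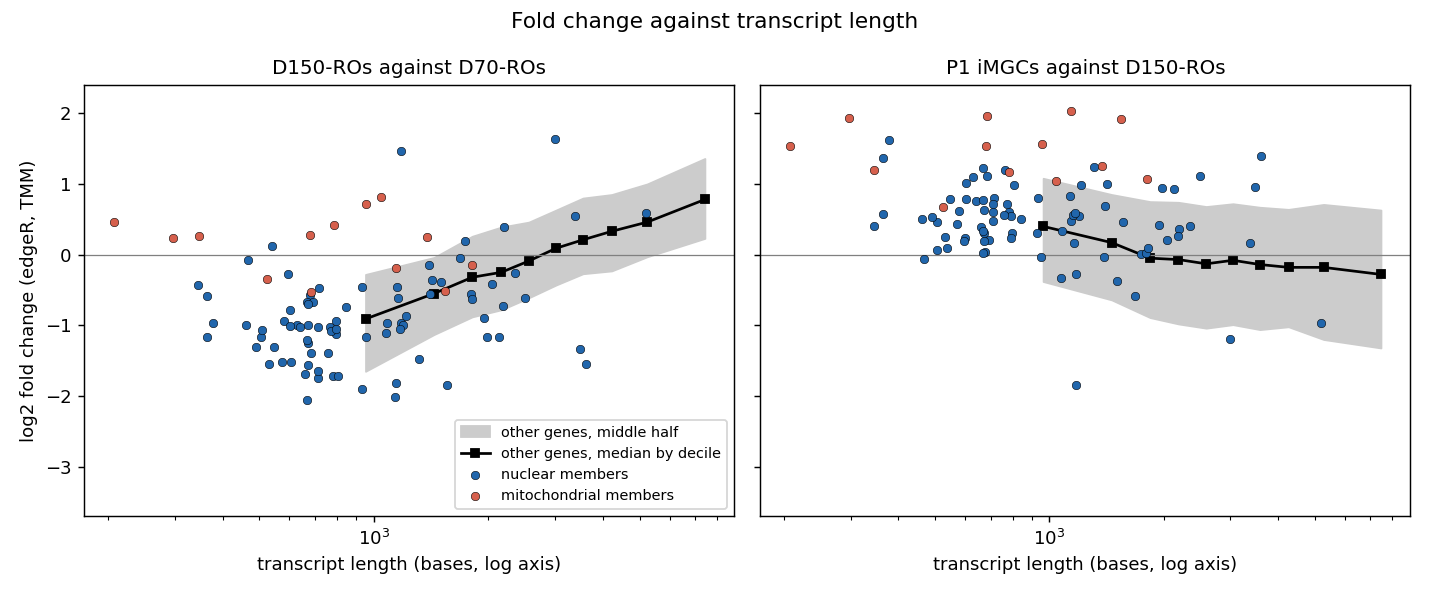
Log2 fold change (edgeR, TMM) against transcript length in bases (log axis) for D150-ROs against D70-ROs (left) and P1 iMGCs against D150-ROs (right). Blue points are nuclear and red points mitochondrial members, the black line is the median of all other genes by length decile, and the grey band holds the middle of their distribution, from lower to upper quartile. In the left panel the line climbs from −0.91 in the shortest to 0.78 in the longest decile and most blue points lie at its short end, with the red points on or above its level. In the right panel the line falls from 0.40 to −0.28, and the red points lie above it.

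By complex, complex IV had 10 of 11 tested members lower and none higher, at a median of −1.39. Complex III had 8 of 8 lower at −1.24, complex I 31 lower and 4 higher of 38 at −0.97, complex V 16 lower and 1 higher of 20 at −0.93, and complex II 3 of 4 lower at −0.31. With the length trend removed the medians were −0.09, −0.36, 0.18, −0.12 and 0.26 in the same order. Complex III then had 4 falls and no rise, and complex I 5 falls and 16 rises.

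Some members fell beyond the length trend. COX7C, a small complex IV subunit without a motif in the stretch shown above, stood at 239, 236 and 235 FPKM in the hiPSC libraries, 317, 280 and 301 in D70-ROs, 73.4, 96.3 and 79.4 in D150-ROs, 113, 126 and 140 in P1 and 122, 101 and 131 in P5 iMGCs. Its fall from day 70 was −2.05 (SE 0.11, adjusted p = 8.94e-07), or −0.78 with the length trend removed. COX7A2L fell by 2.01 on the log2 scale, or by 1.24 with the trend removed. ATP5PO, which holds the stalk of complex V to its head, went from 244, 219 and 219 to 67.9, 72.1 and 73.7 FPKM (−1.90, SE 0.08, adjusted p = 3.27e-07, or −0.94). COX4I1 (chr16:85798633-85807044, plus strand), the common form of subunit 4, went from 392, 412 and 366 to 117, 154 and 129 FPKM (−1.74, SE 0.12, adjusted p = 3.12e-06, or −0.53 with the trend removed). In each of these 4 genes no D150-RO library reached a D70-RO library, but groups did not overlap in 75% of all genes either. For COX7C, COX7A2L and ATP5PO this was a condition of being named.

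Against that drop 5 members rose. NDUFA4L2 (chr12:57234903-57240715, minus strand), a paralog of NDUFA4 known as a hypoxia-induced gene, stood at 3.93, 2.92 and 2.79 FPKM in hiPSCs, then 2.37, 2.47 and 1.65 in D70-ROs, 6.16, 7.13 and 7.39 in D150-ROs, 1.01, 1.34 and 1.31 in P1 and 1.01, 1.38 and 1.29 in P5 iMGCs. D150-ROs stood above all other libraries (log2 fold change from day 70 1.46, SE 0.22, adjusted p = 0.00029). NDUFS1, the largest subunit of complex I, went from 28.3, 22.7 and 27.7 to 40, 41.3 and 44.5 FPKM (0.55, SE 0.13, adjusted p = 0.00397), and NDUFV3 from 12.0, 11.4 and 11.8 to 17.2, 18.3 and 19.2 (0.39, SE 0.10, adjusted p = 0.00561). The remaining members, ATP5S and NDUFA9, rose in counts (1.64 and 0.59) while their FPKM in D70-ROs and D150-ROs overlapped. Other genes in the longest length quartile, which holds NDUFA9, had a median of 0.55. Those in the quartile of NDUFS1 (2765 to 4204 bases) had 0.17.

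Over the whole course from hiPSCs to D150-ROs, 65 of 82 nuclear members were lower and 9 higher, beside 43.9% and 43.2% of all genes. By at least 2-fold 40 were lower and 3 higher, beside 29% and 29.8%. The median was −0.95 with TMM scaling, −0.68 by FPKM and 0.05 with the length trend removed. With that trend removed 30 were lower and 34 higher, beside 5887 and 5706 of all 13344 genes. ATP5MF-PTCD1 (−3.04, SE 0.25, adjusted p = 1.54e-07), ATP5F1D, the delta subunit of complex V (−2.30, SE 0.11, adjusted p = 1.43e-09), and NDUFS6 fell most. ATP5F1D went from 77.7, 94.9 and 85.7 FPKM in hiPSCs through 55.8, 72.5 and 56.0 to 21.8, 22.9 and 21.2, and it was still lower by 1.14 on the log2 scale with the length trend removed.

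NDUFA9 and NDUFA5, accessory subunits of complex I, were higher in D150-ROs than in hiPSCs. NDUFA9 stood at 4.64, 5.21 and 3.57 FPKM in hiPSCs against 7.98, 7.78 and 8.28 (1.2, SE 0.10, adjusted p = 2.26e-07). Its transcript length in D150-ROs was 8363 bases, and other genes of the longest length decile (median 7388 bases) had a median of 1.16. Its rise in counts was thus about that of other long genes. NDUFA5 rose early, from 22.6, 17.0 and 27.1 FPKM to 62.8, 40.1 and 55.9 in D70-ROs, and held at 53.1, 63.3 and 58.6 in D150-ROs (1.00, SE 0.14, adjusted p = 1.79e-05). ATP5S was higher by 1.98 (SE 0.12, adjusted p = 6.69e-09), or by 0.74 by FPKM.

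Whether nuclear members were higher or lower in P1 iMGCs than in D150-ROs depended on the scaling. With TMM, 58 of 81 were higher and 7 lower, beside 42.2% and 44.7% of all genes, and 10 higher and 2 lower by at least 2-fold, beside 20% and 24.1%, at a median of 0.47. By FPKM 17 were higher and 31 lower, beside 2956 and 8328 of all 12896 genes, at a median of −0.13 against −0.59. With the length trend removed, 33 were higher and 29 lower, beside 5388 and 5784 of all genes, at a median of 0.03. As a share of the library they were lower, as given above. TMM factors were 1.25 in the D150-ROs and 0.793 to 0.809 in P1 iMGCs, whose libraries also held the high matrix genes (COL1A1 at 2000 FPKM against 2.77 in D150-ROs) and lacked photoreceptor markers. The part of this change in cell composition in the result was not tested.

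The length trend ran the other way here. The medians of other genes by length quartile were 0.24, −0.09, −0.11 and −0.24. Those of the nuclear members were 0.49 (68 members), 0.42 (8), 0.55 (4) and −0.97 (1). Of the 721 others of at most 1000 bases 422 were higher and 166 lower, with a median of 0.53. The nuclear members of that length had the same median, with 36 higher and none lower. By complex, 7 of 8 complex III members were higher and none lower, at 0.87, and it was the complex whose median lay above 0 with TMM (0.87), by FPKM (0.22) and with the length trend removed (0.41). The medians of complexes I, II, IV and V were 0.35, 0.49, 0.53 and 0.52 with TMM and −0.16, −0.01, −0.13 and −0.07 by FPKM.

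Of the nuclear members with positive values under all 3 of these settings, 4 small subunits are given here. ATP5MD, a small membrane subunit of complex V, stood at 42.7, 61.1 and 52.7 FPKM in D150-ROs, 93.7, 103 and 114 in P1 and 109.9, 83.9 and 102 in P5 iMGCs. Its log2 fold change was 1.62 (SE 0.11, adjusted p = 1.65e-09), with 0.65 once the length trend was removed and 0.99 by FPKM. ATP5F1E rose from 9.7, 14.9 and 11.9 to 16.4, 19.6 and 23.2 FPKM (1.40, SE 0.13, adjusted p = 7.53e-08, or 0.67 by FPKM), ATP5MF from 55.7, 92.5 and 67.8 to 104, 112 and 132 (1.37, SE 0.14, adjusted p = 1.55e-07, or 0.70) and COX7C by 1.23 (SE 0.09, adjusted p = 3.98e-09, or 0.60). In these 4 genes each P1 library was above each D150-RO library, but groups did not overlap in 74% of all genes either. For ATP5MD, ATP5F1E and ATP5MF this was a condition of being named.

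NDUFA4L2 fell most, by 1.85 on the log2 scale (SE 0.20, adjusted p = 2.88e-07), with −2.13 once the length trend was removed and −1.83 by FPKM. ATP5S fell by 1.19 (SE 0.08, adjusted p = 8.53e-10) and NDUFA9 by 0.97 (SE 0.08, adjusted p = 7.11e-09). NDUFA5 fell by 0.58, to 29.99, 24.6 and 25.3 FPKM. With P5 in place of P1 iMGCs, 55 nuclear members were higher and 8 lower with TMM scaling, at a median of 0.49. Of all 12933 genes tested there, 5378 were higher and 5828 lower.

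**Figure D4:**
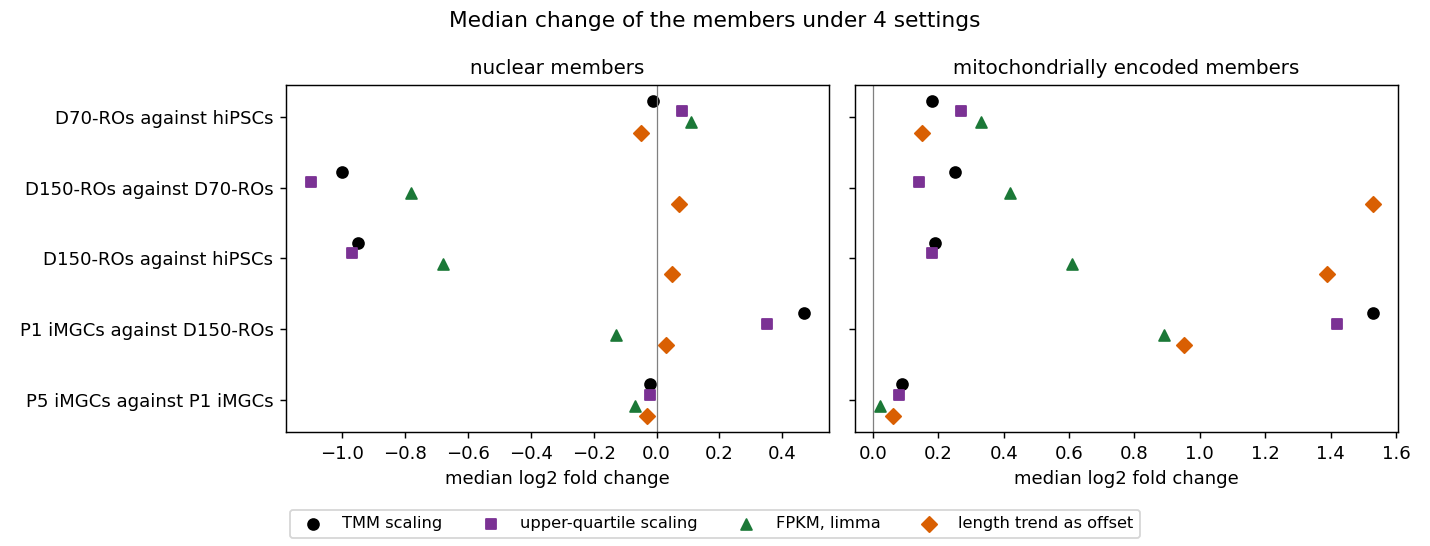
Median log2 fold change of the nuclear members (left) and the 13 mitochondrially encoded members (right) in the 5 comparisons under TMM scaling (black circles), upper-quartile scaling (purple squares), limma on log2(FPKM + 1) (green triangles) and the length trend as an offset (orange diamonds). For nuclear members the D150-RO medians move from −1.0 and −0.95 to 0.07 and 0.05 with the offset. For mitochondrial members P1 iMGCs against D150-ROs lies at 0.89 or above under all 4 settings.

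Passage left the nuclear members nearly level. Of 81, none was higher and 2 were lower at P5 (1 and 7 by FPKM), beside 16.6% and 14% of all genes, and none moved by 2-fold, beside 1.94% and 0.977%. NDUFS1 went from 35.1, 34.3 and 36.3 to 30.2, 30.2 and 29.6 FPKM (log2 fold change −0.16, SE 0.04, adjusted p = 0.006). NDUFS3, another core subunit of complex I, went from 24.2, 22.9 and 24.3 to 22.3, 16.0 and 18.8 FPKM (−0.26, SE 0.09, adjusted p = 0.0337). Neither gene's groups overlapped, which was a condition of being named and held for 38.9% of all genes.

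Complex II can be followed gene by gene. SDHA, the subunit that binds succinate, stood at 53.7, 49.9 and 50.7 FPKM in the hiPSC libraries, 33.7, 40.8 and 36.2 in D70-ROs, 35.7, 34.9 and 36.6 in D150-ROs, 31.6, 31.5 and 28.5 in P1 and 30.8, 30.8 and 31.3 in P5 iMGCs. It fell by 0.62 and 0.26 at the first 2 steps and rose by 0.41 at the third with TMM scaling, but was at −0.22 there by FPKM. SDHD, a membrane anchor with the NRF1 and ETS motifs shown above, stood at 37.8, 34.5 and 48.4 FPKM in hiPSCs, then 35.3, 30.4 and 33.4 in D70-ROs, 31.2, 28.8 and 29.5 in D150-ROs, 40.3, 37.6 and 39.1 in P1 and 38.0, 34.4 and 34.0 in P5 iMGCs. Its rise in P1 iMGCs was 1.00 (SE 0.06, adjusted p = 2.9e-10), and no P1 library overlapped the D150-ROs.

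SDHB, which carries the iron-sulphur clusters, changed by −0.01 at the first step, fell by 0.46 at the second and rose by 0.56 at the third with TMM scaling, but was at 0.30 at the second with the length trend removed and at −0.16 at the third by FPKM. SDHC, the other anchor and the highest of the 4 per length, had log2 fold changes of −0.36, 0.19 and 0.01, of which only the first passed the test. Its FPKM ran 86.1, 87.3 and 83.5 in hiPSCs, 82.8, 74.4 and 73.7 in D70-ROs, then 46.2, 54.9 and 65.0 in D150-ROs, so that its level per length was lower in every D150-RO library than in the D70-ROs while its change in counts did not pass the test.

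**Figure D5:**
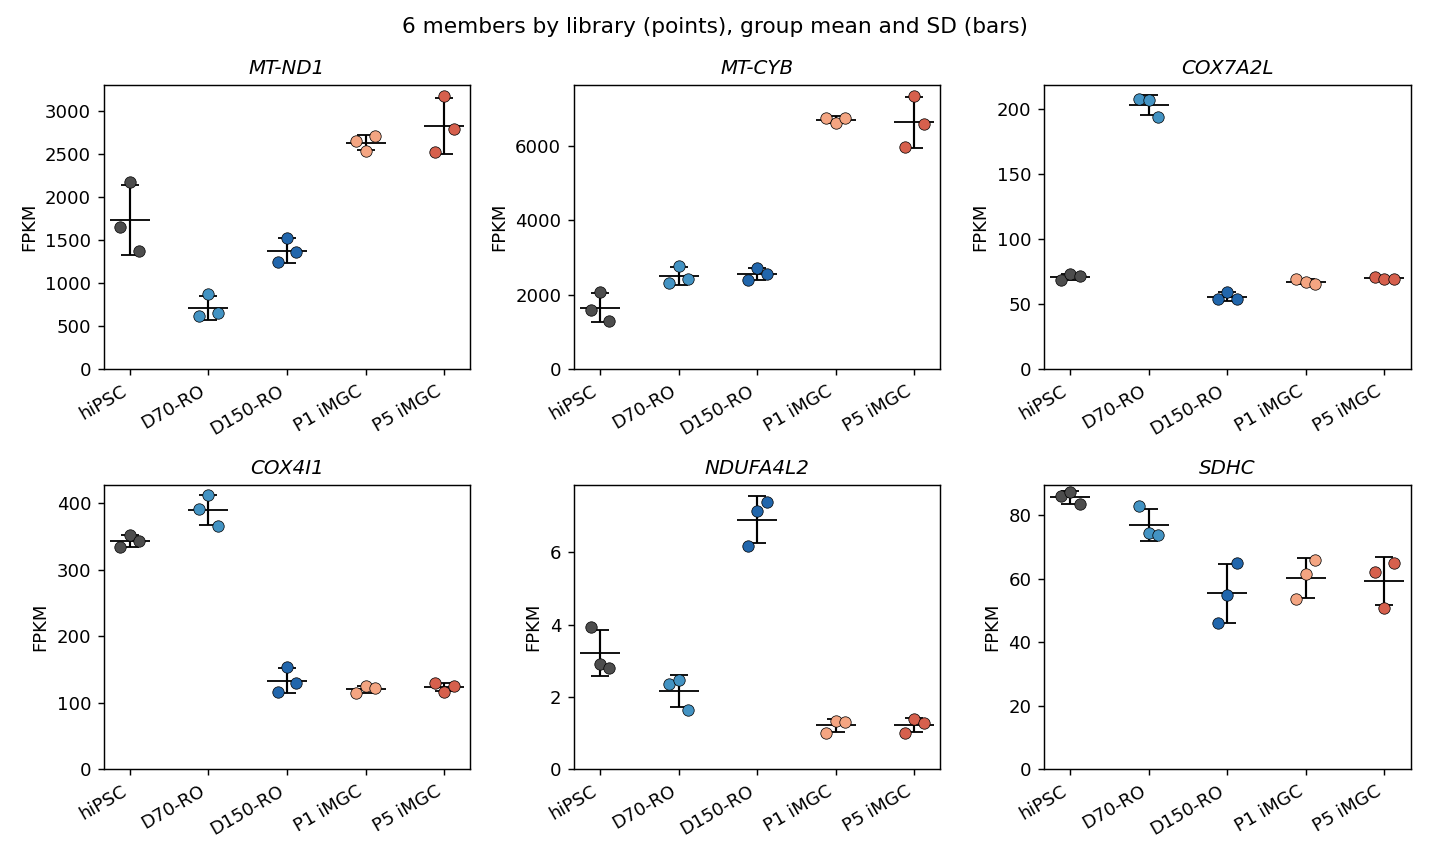
FPKM of 6 members in the 5 groups, with points for libraries and bars for the mean and SD of 3. MT-ND1 is lowest in D70-ROs and MT-CYB highest in iMGCs. COX7A2L peaks in D70-ROs at 194 to 208 FPKM, COX4I1 drops at D150-ROs, NDUFA4L2 peaks there at 6.16 to 7.39 FPKM, and SDHC falls by less.

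Among complex IV subunits with paralogs, 1 form carried nearly all of the level per length. COX4I1 stood at 334, 352 and 343 FPKM in hiPSCs against at most 0.56 for COX4I2 in any library. COX6A1, the complex IV gene with the highest mean level, stood at 370.0, 387 and 401 FPKM in the hiPSC libraries, 499, 445 and 439 in D70-ROs, 178, 196 and 189 in D150-ROs, 153, 168 and 166 in P1 and 154, 154 and 158 in P5 iMGCs. COX4I1 and COX6A1 rose in P1 iMGCs by 0.47 and 0.43 with TMM scaling but were at −0.13 and −0.21 by FPKM and at −0.10 and −0.28 with the length trend removed. Of the remaining common forms, COX6B1 and COX7A2 fell by 1.31 and 1.39 on the log2 scale between day 70 and day 150, with COX6B1 at 0.26 once the length trend was removed.

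COX8A, the ubiquitous form of subunit 8, fell at both steps, by 0.66 and 1.06 on the log2 scale, although the second stood at 0.49 with the length trend removed. Its FPKM were 368, 372 and 336 in hiPSCs, 255, 263 and 230.0 in D70-ROs, then 130, 152 and 139 in D150-ROs. COX7B kept its level at day 150, with 69.7, 77.7 and 82.3 FPKM in hiPSCs, then 121, 89.8 and 109 in D70-ROs, then 92.4, 125 and 109 in D150-ROs, and its change between day 70 and day 150 (−0.08) did not pass the test. NDUFA4, at 57.7, 56.3 and 65.3 FPKM in hiPSCs and 27.9, 31.3 and 31.0 in D150-ROs, fell by 1.35 over that course with no overlap, the reverse of its paralog NDUFA4L2.

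ATP5MC1, ATP5MC2 and ATP5MC3 code for the same ring subunit of complex V. From hiPSCs to D70-ROs they changed by −1.20, −0.01 and −0.40, and from day 70 to day 150 by −0.28, −1.56 and −1.05, of which −0.01 and −0.28 did not pass the test. With TMM scaling ATP5MC1 thus fell at the first step, ATP5MC2 at the second and ATP5MC3 at both. At the second step other genes of at most 1000 bases, the length class of ATP5MC1, ATP5MC2 and UQCRH, had a median of −1.08. UQCRH, the highest complex III gene, stood at 184, 177 and 184 FPKM in the hiPSC libraries, 186, 184 and 172 in D70-ROs, then 60.0, 82.8 and 78.5 in D150-ROs (−1.52 from day 70, SE 0.13, adjusted p = 8.9e-06). NDUFS5, the highest complex I gene, stood at 225, 169 and 190 FPKM in D70-ROs, then 76.7, 105 and 95.6 in D150-ROs (−1.30, SE 0.14, adjusted p = 3.59e-05), but was at 0.17 with the length trend removed.

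Genes that make, assemble and feed the complexes were counted from lists written down with earlier results known. Of 78 mitochondrial ribosomal proteins, which translate the 13 mitochondrial genes, 40 were lower and 5 higher in D70-ROs than in hiPSCs, beside 37.3% and 37.9% of all genes. At day 150 against day 70, 58 were lower and 6 higher, beside 37.4% and 36.5%. The medians were −0.38 and −0.76, the second at 0.04 with the length trend removed. In P1 iMGCs 53 were higher and 9 lower than in D150-ROs, beside 42.2% and 44.7% of all genes, at a median of 0.38. By FPKM 18 were higher and 42 lower, beside 2956 and 8328 of all 12896 genes. The FPKM median was −0.24, above the −0.59 of all genes. Of 47 assembly factors 25 were lower and 4 higher at day 150 than at day 70, beside 37.4% and 36.5% of all genes, at a median of −0.34. With the length trend removed 17 were higher and 8 lower, beside 4495 and 4524 of all 12855 genes, at a median of 0.12. In P1 iMGCs 19 were higher and 12 lower than in D150-ROs with TMM scaling, beside 42.2% and 44.7% of all genes. With upper-quartile scaling 14 were higher and 17 lower, beside 4940 and 6267 of all 12896 genes. By FPKM 1 was higher and 31 lower, beside 2956 and 8328, at a median of −0.56 against −0.59 over all genes. The balance thus turned with the scaling, and lower calls over all genes also grew, from 5765 with TMM to 6267 and 8328. COX20, which assists MT-CO2, had mean FPKM of 21.8 in D70-ROs, 61.1 in D150-ROs and 30 in P1 iMGCs (log2 fold changes 1.30 and −0.84).

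Of 10 regulators of mitochondrial biogenesis tested in P1 iMGCs against D150-ROs, 4 were higher and 6 lower, beside 42.2% and 44.7% of all genes, at a median of −0.39. By FPKM 0 were higher and 7 lower, beside 2956 and 8328 of all 12896 genes, at −0.95 against −0.59. PPARGC1A, the coactivator that drives mitochondrial biogenesis, had mean FPKM of 0.34 in hiPSCs, 2.12 in D70-ROs, 5.21 in D150-ROs and 0.137 in P1 iMGCs. Its 5.33, 4.14 and 6.16 FPKM in D150-ROs stood against 0.18, 0.09 and 0.14 in P1 iMGCs, a log2 fold change of −4.60. The nuclear receptor gene ESRRG followed the same course, with means of 0.483, 6.51, 23.4 and 0.03. PPARGC1A and ESRRG passed the filter in P1 iMGCs against D150-ROs only through the D150-ROs. Their places among the 6 lower genes were therefore fixed by the filter and are given as a description. NRF1, whose motif is shown above, was at 10.1, 8.53, 7.5 and 2.71 FPKM and fell by 1.07 in P1 iMGCs (SE 0.11, adjusted p = 2.07e-07). ESRRA, at 12.7, 9.45, 5.13 and 5.82 FPKM, fell by 0.67 and 1.00 and then rose by 0.85 with TMM scaling, where its FPKM in D150-ROs and P1 iMGCs overlapped. In P1 iMGCs, where the mitochondrial share was above that of D150-ROs, PPARGC1A, ESRRG and NRF1 were thus lower, while ESRRA was higher with TMM scaling. PPARGC1A and ESRRG were also low in hiPSCs, whose mean mitochondrial share (3.09%) was the lowest of the groups. A relation between these regulators and the mitochondrial share was not tested.

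Of the 24 genes that copy and express mitochondrial DNA, 12 were lower and 4 higher in D70-ROs than in hiPSCs, beside 37.3% and 37.9% of all genes. In P1 iMGCs against D150-ROs 9 were higher and 4 lower, beside 42.2% and 44.7%, at a median of 0.11. By FPKM 2 were higher and 17 lower, beside 2956 and 8328 of all 12896 genes, at −0.43 against −0.59. TFAM, which packs mitochondrial DNA and starts its transcription, had mean FPKM of 18.1, 14.7, 19.4, 10.1 and 9.14 over the 5 groups and fell by 0.49 in P1 iMGCs (SE 0.07, adjusted p = 6.1e-06). TFB2M, a transcription factor of the same machinery, had 8.38, 6.83, 7.07, 10.3 and 8.47 and rose by 1.18 (SE 0.10, adjusted p = 2.05e-08). POLRMT, the mitochondrial RNA polymerase, went from 30.5 in hiPSCs to 13.3, 10.3, 6.75 and 5.76, with log2 fold changes of −1.34 and −0.60 at the first 2 steps and 0.00 in P1 iMGCs, which did not pass the test although every P1 library had lower FPKM than the D150-ROs.

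Of 17 tricarboxylic acid cycle genes 8 were higher and 3 lower in P1 iMGCs than in D150-ROs, beside 42.2% and 44.7% of all genes, at a median of 0.05. By FPKM 3 were higher and 12 lower, beside 2956 and 8328 of all 12896 genes, at −0.53 against −0.59. SUCLG2, which makes GTP in that cycle, had mean FPKM of 8.79 in D150-ROs and 27.3 in P1 iMGCs (2.30). Of 16 electron carriers and exchangers tested in that comparison, 10 were higher and 4 lower, beside 42.2% and 44.7% of all genes, at a median of 0.52. By FPKM 6 were higher and 8 lower, beside 2956 and 8328 of all 12896 genes, at −0.10 against −0.59. SLC25A3, the phosphate carrier that feeds complex V, had mean FPKM of 629, 471, 194, 399 and 390 over the 5 groups, with a fall of 1.39 by day 150 and a rise of 1.57 in P1 iMGCs (SE 0.04, adjusted p = 1.06e-14). Of 9 hypoxia-induced genes, 8 were lower and 1 higher from day 70 to day 150, beside 37.4% and 36.5% of all genes, at a median of −0.95, while NDUFA4L2 rose at that step.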

How the data were processed

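Poly(A) RNA-seq of 15 libraries in 5 groups was used. Mapping by the authors used HISAT2, assembly StringTie and quantification RSEM. Versions, genome build and annotation are not given in the sources used here. The authors deposited for each gene an expected count, which RSEM gives without normalization (between 8.21% and 10.1% were not whole and were rounded), and FPKM, scaled by them for transcript length and mapped reads. A correction between batches is named in the series description without the values it touched, so whether it reached these columns is unknown. Another 12 columns, of iMGCs without a passage, were not used. All 19684 identifiers are in GENCODE 29 (GRCh38), used for positions. Transcript length was derived from counts and FPKM.

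The quasi-likelihood test of edgeR 4.0.16 (R 4.3.3, TMM scaling) compared 2 groups at a time and had no covariates. A gene entered if 3 or more of the compared libraries reached 1 FPKM. P-values were adjusted by Benjamini-Hochberg over all genes tested, and genes were called at an adjusted p under 0.05. P1 iMGCs and D150-ROs came from separate tables, joined as deposited counts. Alternatives used DESeq2 1.42.0, limma 3.58.1 on log2(FPKM + 1) or log2(FPKM + 0.1), other scalings and filters, and a smooth trend on transcript length as an offset. Scripts were tested on simulated data.

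The members and the pathway and marker lists were chosen with earlier results of these data known. Named were all mitochondrial genes, members with paralogs, complex II, the 3 largest rises and falls without overlap in each comparison, and the highest gene of each complex. ATP5PF, members named for their length and the pathway genes given with values were picked after their values were seen.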

Additional observations from a re-analysis of the deposited data

How the results depend on the processing

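Replicate numbers did not pair the libraries: libraries with the same number deviated from their groups with correlations of −0.0596 to 0.321. With the replicate number as a block, nuclear members called higher and lower were 22 and 30 (D70-ROs against hiPSCs), 5 and 66 (D150-ROs against D70-ROs), 8 and 66 (D150-ROs against hiPSCs), 62 and 7 (P1 iMGCs against D150-ROs) and 0 and 2 (P5 against P1 iMGCs), and mitochondrial members 4 and 2, 6 and 3, 6 and 3, 13 and 0, and 6 and 1. Over the values that were tallied, 1889 kept direction and side of the threshold, 158 lost the call and 32 changed sign. The tally did not count every member under every setting, so it understates the sign changes of single members. The nuclear median changed sign with the length offset in D150-ROs against D70-ROs and against hiPSCs. It also changed sign with limma in P1 iMGCs against D150-ROs. The length offset itself removes what short genes share. Other causes were not tested.

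D70-ROs against hiPSCs: the nuclear median was 0.11 with either limma setting and 0.08 with upper-quartile scaling; against a 1.2-fold change, 19 nuclear members were lower and 2 mitochondrial ones higher. Leaving out 1 library gave 16 to 29 nuclear members lower (16 without D70-RO replicate 3), a nuclear median of −0.09 to 0.12 (0.05, 0.06 and 0.12 without D70-RO replicates 1, 2 and 3) and 1 to 6 mitochondrial members higher (1 without hiPSC replicate 1 or 3).

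D150-ROs against D70-ROs: with the length offset 30 nuclear members were higher and 22 lower (median 0.07), and 12 mitochondrial ones higher and 0 lower (median 1.53). Limma gave 3 nuclear members higher, nuclear medians of −0.80 (pseudocount 0.1) and −0.78 (pseudocount 1), 0 mitochondrial members lower and a mitochondrial median of 0.42. Upper-quartile scaling gave a nuclear median of −1.10 and 5 mitochondrial members lower. With the length offset COX6B1 was at 0.26, COX8A at 0.49, MT-CO1 at 0.00, MT-CO2 at 0.73, NDUFS5 at 0.17, SDHB at 0.30 and SDHD at 0.21. Leaving out 1 library gave 3 to 7 mitochondrial members higher, 1 to 3 lower, and medians of 0.01 to 0.39 (mitochondrial) and −1.04 to −0.87 (nuclear). As a share of summed FPKM the mitochondrial genes were 4.18 percentage points higher at day 150 than at day 70, and 4.43 above the hiPSCs.

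D150-ROs against hiPSCs: the length offset gave 34 nuclear members higher and 30 lower (median 0.05) and 12 mitochondrial ones higher and 0 lower (median 1.39). Limma gave nuclear medians of −0.69 and −0.68, and 8 mitochondrial members higher and 0 lower (median 0.61). Against a 1.2-fold change 2 mitochondrial members were higher. With the length offset COX6B1 was at 0.14, COX7A2 at 0.09, COX7A2L at 0.30, MT-CO1 at 0.15, MT-CO3 at 0.81 (0.03 with limma), MT-ND1 at 0.35 and SDHB at 0.44. Leaving out 1 library gave 1 to 10 mitochondrial members higher, 1 to 3 lower, and medians of −0.08 to 0.49 (mitochondrial) and −1.09 to −0.72 (nuclear).

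P1 iMGCs against D150-ROs: the length offset gave 33 nuclear members higher and 29 lower (median 0.03), limma 17 and 31 (median −0.13) and upper-quartile scaling a nuclear median of 0.35. The mitochondrial median was 0.95, 0.89 and 1.42 under these. Under the length offset and limma, COX4I1 was at −0.10 and −0.13, COX6A1 at −0.28 and −0.21 and COX6B1 at −0.28 and −0.10. COX7A2 (−0.14, −0.13), SDHA (−0.23, −0.22) and SDHB (−0.16) were below 0 with limma, and MT-ND6 (−0.07) with the length offset. Leaving out 1 library gave 6 to 12 nuclear members lower and medians of 0.27 to 0.56 (nuclear) and 1.3 to 1.6 (mitochondrial). The mitochondrial share of summed FPKM was 7.25 percentage points higher in P1 iMGCs.

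P5 against P1 iMGCs: nuclear members called lower were 0 in the fit of all 15 libraries, 1 with DESeq2, 6 and 7 with limma (1 called higher, median −0.07) and 0 against a 1.2-fold change. Mitochondrial members called higher were 0, 2, 1 and 0 in the same order, and lower 0 with all but limma. Leaving out 1 library gave 0 to 1 nuclear member higher, 1 to 3 lower, 2 to 8 mitochondrial members higher and 0 to 1 lower.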

Other observations

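The transcript length that counts and FPKM imply for a gene, which follows the mix of isoforms the authors' quantification assigned, changed for some members. Between D70-ROs and D150-ROs it grew by at least 1.2-fold in 6 of 79 nuclear members (7.59%, against 261 of 8496 other genes, 3.07%), and it shrank by that much in none. SDHC went from 1640 to 2994 bases while its counts, summed over the 3 libraries of a group, went from 6245 to 8028 and its mean FPKM from 77.0 to 55.4. ATP5S went from 2559 to 6029 bases, with summed counts of 596 and 2078 and mean FPKM of 5.06 and 7.16. NDUFA9 went from 5765 to 8363 bases, NDUFA10 from 1545 to 2078, UQCRB from 2112 to 2557 and ATP5IF1 from 546 to 658. For these genes a change in counts and a change in FPKM are not the same statement.

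In P1 iMGCs SDHC was back at 1778 bases, NDUFA9 at 4077, NDUFA10 at 1340 and ATP5IF1 at 539. NDUFA9 was at 2463 bases in P5 iMGCs, where its summed count (1026) was below that of P1 (1098) and its mean FPKM (8.38) above it (5.34). Isoform tables were not used here, and the isoforms behind these lengths were not identified.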
